A study of Homo sapiens with 12 samples.

Results

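The genes described here are 9 genes of glycogen synthesis and breakdown, out of 58735 genes measured by RNA sequencing in cultured human cells labelled Huh7 and HepG2. They were chosen by name: PGM1, UGP2, GYG1, GYS1, GBE1, PPP1R3B, PPP1R3C, PYGL and PYGB, each taken as its row of the deposited expression table. The 4 groups were Huh7-labelled cells given geniposide, Huh7-labelled cells left untreated, HepG2-labelled cells given geniposide and HepG2-labelled cells left untreated, with 3 samples in each. All samples carry 48 h in a label field named batch, which was read as the treatment time given in the study's design text. Huh7 was derived from a hepatocellular carcinoma and HepG2 from a hepatoblastoma. Geniposide is a glycoside of the iridoid class found in gardenia fruit, and its dose is not stated in the labels. The study's title is about geniposide, the oxidase DUOX1 and ferroptosis in liver cancer, and the labels name no comparison on glycogen.

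Glycogen is the branched glucose store of liver and muscle. Glucose phosphate made by hexokinase is turned by phosphoglucomutase (PGM1) into the isomer that UGP2 joins to UTP, and the UDP-glucose so formed is the building block of the chain. Glycogenin (GYG1) starts the chain on itself, glycogen synthase (GYS1 outside liver, GYS2 in hepatocytes) lengthens it, and the branching enzyme GBE1 adds its branch points. Glycogen phosphorylase (PYGL is the liver form, PYGB the brain form, PYGM the muscle form) releases glucose from the chain ends. Synthase is switched on and phosphorylase off when phosphate is removed by protein phosphatase 1, which PPP1R3 subunits such as PPP1R3B and PPP1R3C hold at the glycogen particle.

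Promoters are shown for GYS1, which fell with geniposide in Huh7-labelled cells, for GBE1, PGM1 and PPP1R3C, which rose in HepG2-labelled cells, and for GYG1, which fell there. Each run is the RefSeq stretch of 300 bases on GRCh38.p14, from 250 bases before to 50 bases after the outermost annotated start, read 5′ to 3′ on the gene's own strand. Capitals mark ACGTG or GCGTG, the core letters recognised by hypoxia-inducible factors, or the complements CACGT and CACGC.
GYS1, chr19:48993260-48993559, minus strand: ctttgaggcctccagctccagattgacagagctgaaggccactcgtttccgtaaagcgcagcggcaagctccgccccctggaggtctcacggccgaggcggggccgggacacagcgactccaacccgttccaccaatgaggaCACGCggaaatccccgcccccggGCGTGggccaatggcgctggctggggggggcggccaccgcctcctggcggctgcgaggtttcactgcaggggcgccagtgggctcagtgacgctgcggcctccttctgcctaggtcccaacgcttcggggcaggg
GBE1, chr3:81761596-81761895, minus strand: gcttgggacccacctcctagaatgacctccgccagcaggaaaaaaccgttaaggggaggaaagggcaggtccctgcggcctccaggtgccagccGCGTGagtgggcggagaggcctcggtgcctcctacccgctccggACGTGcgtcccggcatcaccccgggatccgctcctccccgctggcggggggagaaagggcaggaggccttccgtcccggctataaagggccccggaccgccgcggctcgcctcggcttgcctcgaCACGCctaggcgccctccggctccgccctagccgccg
GYG1, chr3:148991290-148991589, plus strand: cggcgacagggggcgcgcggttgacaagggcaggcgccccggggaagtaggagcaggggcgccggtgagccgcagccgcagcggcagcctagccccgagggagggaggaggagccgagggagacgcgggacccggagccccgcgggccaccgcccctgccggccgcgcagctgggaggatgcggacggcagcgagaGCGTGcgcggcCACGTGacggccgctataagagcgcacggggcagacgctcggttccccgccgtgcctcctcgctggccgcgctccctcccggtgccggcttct
PGM1, chr1:63593161-63593460, plus strand: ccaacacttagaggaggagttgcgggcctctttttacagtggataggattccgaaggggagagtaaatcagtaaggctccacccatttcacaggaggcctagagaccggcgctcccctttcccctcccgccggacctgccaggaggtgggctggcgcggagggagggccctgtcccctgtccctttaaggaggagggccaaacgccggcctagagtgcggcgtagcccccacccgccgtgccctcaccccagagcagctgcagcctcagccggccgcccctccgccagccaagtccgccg
PPP1R3C, chr10:91633022-91633321, minus strand: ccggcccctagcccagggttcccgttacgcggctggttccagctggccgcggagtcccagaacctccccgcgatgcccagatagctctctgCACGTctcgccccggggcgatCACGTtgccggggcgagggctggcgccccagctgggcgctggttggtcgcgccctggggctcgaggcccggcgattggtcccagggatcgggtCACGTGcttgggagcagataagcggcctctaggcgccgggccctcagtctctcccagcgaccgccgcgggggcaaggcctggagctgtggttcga

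Of the 9 genes, 8 had an entry in the promoter table, and letters were searched on both strands. ACGTG stood in 4 of the 8 (GBE1, GYG1, UGP2 and PPP1R3C), against 21.4% of all 35116 promoters of this length. GCGTG stood in 5 of the 8, against 36.5%, and either of these in 6 of the 8, against 48.4%. The PPP1R3C promoter held ACGTG 4 times counting both strands, and 2 of those are the 2 strands of 1 CACGTG, the E-box letters, which contain ACGTG. The E-box CACGTG was in the GYG1 promoter as well, so in 2 of the 8, against 7.26% of all. The PGM1 and PYGL promoters held neither ACGTG nor GCGTG. Core letters of the cAMP response element, TGACG, were in 2 of the 8, against 24.6% of all, and the forkhead letters GTAAACA were in 0 of the 8, against 3.42%. The promoters of the 8 genes were 66% to 77.3% G and C, against a median of 58.7% over the table. These are letter matches, not measured binding.

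The libraries held 15056655 to 17211659 fragments in genes. The third treated Huh7-labelled library stood apart: its counts differed from those of its group mates by a chi-square of 43.4 and 44.9 per degree of freedom, while every other pair within a group had 2.20 to 6.58. Among the 9 genes it was the lowest of its group for 5 and the highest for 3, and values without it are given where they change a result. The cells carried next to no hepatocyte RNA under either label. Of 18 hepatocyte markers at most 1 in any group (RBP4, in treated HepG2-labelled cells) averaged 1 FPKM (fragments by kilobase of gene length, scaled to library size), and ALB had 6, TTR 3, AFP 2 and APOB 0 fragments over all 12 libraries. The groups are therefore named by their labels. Whether the cells are the lines so named was not tested, and "line" below means label. Summed FPKM of 12 fibroblast markers was 106 to 110 in treated and 73.6 to 75.3 in untreated HepG2-labelled cells, and 7.46 to 9.80 in treated and 5.34 to 5.79 in untreated Huh7-labelled cells. In the HepG2-labelled groups 6 of the 12 averaged at least 1 FPKM (LUM, COL3A1, COL1A1, DCN, PDGFRB and ACTA2), while COL1A2, PDGFRA and POSTN were at 0. Of the 6 fibroblast markers that could be tested, 4 rose and 1 fell with geniposide in HepG2-labelled cells, while 21% of all tested genes rose and 21.5% fell. In Huh7-labelled cells 2 rose, while 16.4% of all tested genes rose and 18.1% fell. LUM, DCN and PDGFRB averaged at most 0.223 FPKM in the Huh7-labelled groups and passed the filter only through HepG2-labelled samples. The part of the fibroblast markers in the changes below was not tested. Endothelial, leukocyte and skeletal muscle markers each summed to at most 4.06 FPKM in any library. Mitochondrial genes took 3.70% to 4.11% of fragments in treated and 4.47% to 4.55% in untreated HepG2-labelled libraries, and 4.99% to 5.06% in treated and 4.85% to 5.16% in untreated Huh7-labelled ones, and the part of this was not tested either. In such bulk samples, fewer cells of a type and less RNA per cell cannot be told apart.

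Geniposide changed these genes in different ways under the 2 labels. In HepG2-labelled cells 5 of the 9 rose (GBE1, PPP1R3B, PPP1R3C, PGM1 and PYGL) and 1 fell (GYG1), while 21% of all 15518 tested genes rose and 21.5% fell, 42.5% in all. In Huh7-labelled cells 1 rose (PGM1) and 3 fell (GYS1, UGP2 and PYGL), while 16.4% of all tested genes rose and 18.1% fell, 34.5% in all. Treated and untreated samples did not overlap for 7 of the 9 genes in HepG2-labelled cells, as for 58.9% of all tested genes, and for 4 of the 9 in Huh7-labelled cells, as for 43.9%. The median change of the 9 genes was 0.17 in HepG2-labelled and -0.03 in Huh7-labelled cells, and over all tested genes it was 0.00 under both labels. These changes are differences in mean log2(FPKM + 1), which understate the change of low genes, and a gene is said to rise or fall where limma's two-sided test had a Benjamini-Hochberg adjusted p under 0.05. All 9 genes passed the filter on low values, PPP1R3C only through its HepG2-labelled samples, so that its tests between the labels follow from its level under the HepG2 label. The effect of geniposide itself differed between the labels for 6 of the other 8 genes, more positive in HepG2-labelled cells for 5 and more negative for GYG1, while 14.1% of all tested genes differed in the first direction and 13.7% in the second, 27.8% in all.

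**Figure D1:**
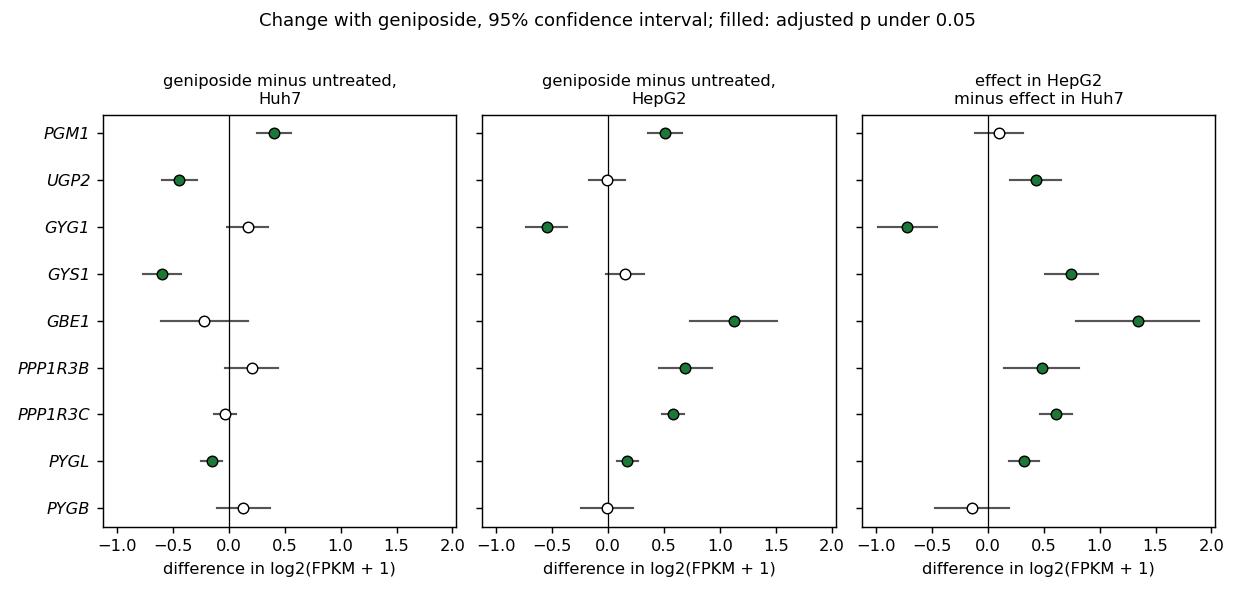
Change with geniposide in Huh7-labelled cells, in HepG2-labelled cells, and the difference of the 2 changes, for the 9 glycogen genes (x axis: difference in log2(FPKM + 1), on 1 scale; points: limma estimates; lines: 95% confidence intervals; filled points: adjusted p under 0.05). GBE1 has the largest rise among the 9 in HepG2-labelled cells (1.12), GYS1 the largest fall in Huh7-labelled cells (-0.60), and PGM1 lies to the right of 0 under both labels. PPP1R3C was near 0 in Huh7-labelled cells, so its points there and for the difference show no more than its rise in HepG2-labelled cells.

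PGM1 (chromosome 1, 63593276 to 63660245, plus strand, hg38), which feeds glucose phosphate towards UDP-glucose, was the only one of the 9 that rose under both labels. Its level was 41.9, 44.1 and 36.0 FPKM in treated Huh7-labelled samples, against 30.3, 30.3 and 30.6 FPKM in untreated ones. All 3 treated samples lay above all 3 untreated ones, with the third treated library closest to them, and 21.3% of all tested genes had treated samples wholly above untreated ones in this comparison. PGM1 rose by 0.40 ± 0.07 (SE; limma adjusted p = 0.00127) in Huh7-labelled cells. In HepG2-labelled cells it stood at 67.7, 70.4 and 73.5 FPKM in treated samples, against 49.3, 51.2 and 47.6 FPKM in untreated samples. These groups did not overlap either, as for 29.4% of all tested genes with treated samples above, and the rise was 0.51 ± 0.07 (limma adjusted p = 0.000186). The effects differed by 0.10 (95% confidence interval -0.11 to 0.32), which did not pass the test (limma adjusted p = 0.475). Of its exonic bases 4.68% lie opposite ITGB3BP, which had 6.33 to 10.9 FPKM, and fragments there cannot be assigned to a strand.

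UGP2 (chromosome 2, 63840940 to 63891562, plus strand), the enzyme that makes UDP-glucose, fell in Huh7-labelled cells. It had 5.44, 4.96 and 4.19 FPKM in treated Huh7-labelled samples, against 7.01, 7.20 and 6.58 FPKM in untreated ones. The groups did not overlap, and 22.6% of all tested genes had treated samples wholly below untreated ones here. UGP2 fell by 0.44 ± 0.07 (SE; limma adjusted p = 0.00101). In HepG2-labelled cells the values were 23.4, 22.9 and 24.4 FPKM in treated samples, against 24.0, 24.1 and 23.3 FPKM in untreated ones. They overlapped, with a change of -0.01 (95% confidence interval -0.17 to 0.15; limma adjusted p = 0.935). Between the labels the effect differed by 0.43 (limma adjusted p = 0.0114).

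GYG1 (chromosome 3, 148991341 to 149027668, plus strand), the self-glucosylating primer, was the only one of the 9 that fell in HepG2-labelled cells. Its values were 6.74, 6.46 and 6.51 FPKM in treated HepG2-labelled samples, against 9.73, 11.2 and 9.40 FPKM in untreated ones. Every treated sample was below every untreated one, as for 29.4% of all tested genes with treated samples below, and the fall was 0.55 ± 0.08 (SE; limma adjusted p = 0.000390). Huh7-labelled cells had 9.74, 11 and 12.6 FPKM with geniposide and 9.68, 9.81 and 9.66 FPKM without. The ranges overlapped through 1 treated sample, and the change of 0.17 ± 0.08 did not pass (limma adjusted p = 0.149). It passed with TPM (FPKM rescaled to the same sum in every library; 0.26, limma adjusted p = 0.0466), with 2 scalings on recovered fragments (adjusted p = 0.0374 and 0.0404) and without the first treated library (0.25, adjusted p = 0.0329). The effects differed by -0.72 (limma adjusted p = 0.00165). The 3 annotated GYG1 pseudogenes had 7 fragments in all.

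GYS1 (chromosome 19, 48968125 to 48993310, minus strand), the synthase that lengthens the chain, fell in Huh7-labelled cells. It had 17.6, 17.2 and 13.8 FPKM in treated Huh7-labelled samples, against 24.5, 25.4 and 24.8 FPKM in untreated ones. The 2 groups stood well apart, the third treated library being the lowest, and GYS1 fell by 0.60 ± 0.08 (SE; limma adjusted p = 0.000211). In HepG2-labelled cells the values were 74.9, 79.2 and 79.5 FPKM in treated samples, against 70.1, 69.6 and 70.7 FPKM in untreated ones. Here the treated samples lay above the untreated ones, but the change of 0.15 ± 0.08 did not pass (limma adjusted p = 0.142). It did pass with TPM (0.22, adjusted p = 0.0458), when the HepG2-labelled samples were fitted alone (adjusted p = 0.00834) and when the third treated Huh7-labelled library was left out (adjusted p = 0.00170). The 2 effects were apart by 0.75 (limma adjusted p = 0.000744).

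GBE1 (chromosome 3, 81489699 to 81762161, minus strand), the branching enzyme, had the largest rise of the 9 in HepG2-labelled cells. It reached 67.5, 72.7 and 69.6 FPKM in treated HepG2-labelled samples, against 31.7, 32.4 and 30.8 FPKM in untreated ones. The treated mean was 2.21 times the untreated mean, with no overlap, and the rise was 1.12 ± 0.18 (SE; limma adjusted p = 0.000477). For Huh7-labelled cells the values were 6.28, 6.12 and 3.17 FPKM with geniposide and 5.54, 5.59 and 6.94 FPKM without. Those ranges overlapped, the third treated library was the lowest of all 6, and the change of -0.22 ± 0.18 did not pass (limma adjusted p = 0.377). Without that library it was 0.04 (adjusted p = 0.702). Between the labels the effect differed by 1.34 (limma adjusted p = 0.00315). With these changes the ratio of GBE1 to GYS1 FPKM was 0.898 ± 0.0214 in treated and 0.451 ± 0.0149 in untreated HepG2-labelled cells (SD, n = 3 each), a description chosen after the values were seen. In Huh7-labelled cells it was 0.314 ± 0.0730 with geniposide and 0.242 ± 0.0325 without (SD, n = 3 each), with overlapping ranges. The third treated library had 0.230 there, against 0.356 in each of the others of its group and 0.221 to 0.279 in untreated samples.

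**Figure D2:**
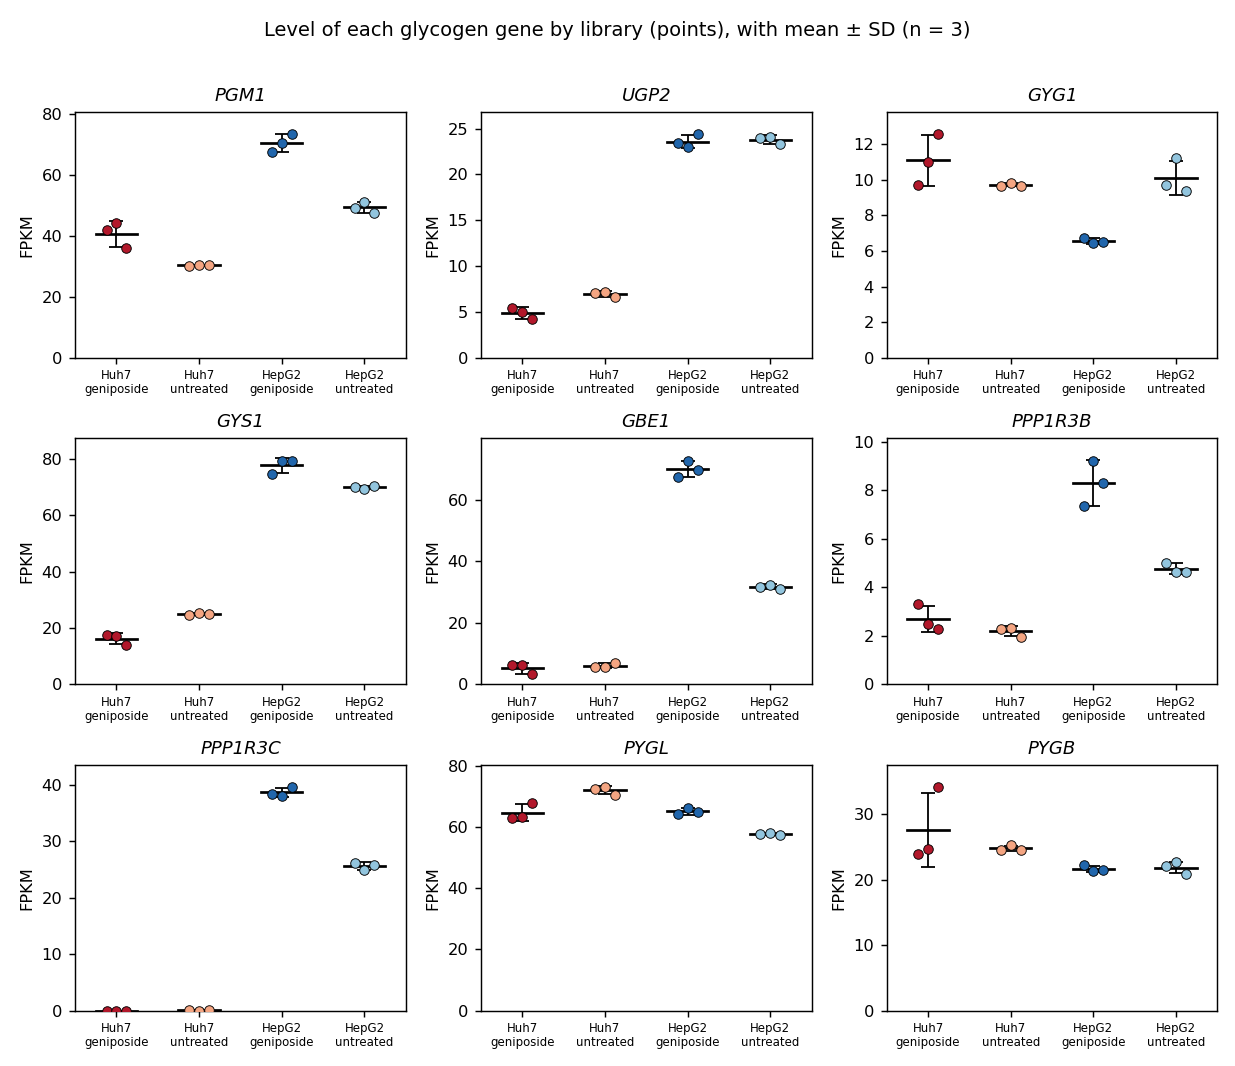
FPKM of each of the 9 glycogen genes in every library (y axes start at 0 and differ between panels; points: libraries; lines: mean ± SD over 3 libraries; groups from left to right as named under each panel). In deposited FPKM, GYS1, GBE1, UGP2, PGM1, PPP1R3B and PPP1R3C stand higher under the HepG2 label than under the Huh7 label in every library. The third point of the treated Huh7-labelled group is apart from the others for several genes.

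PPP1R3C (chromosome 10, 91628442 to 91633054, minus strand), a subunit that brings protein phosphatase 1, synthase and phosphorylase together on glycogen, was near 0 under the Huh7 label. It had 38.4, 38.1 and 39.6 FPKM in treated HepG2-labelled samples, against 26.2, 24.9 and 25.8 FPKM in untreated ones. The ranges were far apart and the rise was 0.58 ± 0.05 (SE; limma adjusted p = 4.69e-06). In Huh7-labelled cells it had 0 fragments in all 3 treated samples, against 2, 0 and 1 fragments in untreated ones. With so few fragments no change could be detected there (limma adjusted p = 0.628), and whether the effect differed between the labels cannot be read from these data. The difference on the log2(FPKM + 1) scale was 0.61 (limma adjusted p = 0.000119), close to the rise in HepG2-labelled cells, and with voom (limma's method for counts) on the fragments recovered from FPKM it was 1.95 (adjusted p = 0.0692).

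PPP1R3B (chromosome 8, 9136255 to 9151574, minus strand), the subunit best known from liver, also rose in HepG2-labelled cells. It stood at 7.34, 9.23 and 8.32 FPKM in treated HepG2-labelled samples, against 5.02, 4.63 and 4.62 FPKM in untreated ones. The groups did not overlap, and the rise was 0.69 ± 0.11 (SE; limma adjusted p = 0.000450). Under the Huh7 label it had 3.31, 2.47 and 2.28 FPKM with geniposide and 2.26, 2.33 and 1.95 FPKM without. These overlapped, and the change of 0.20 ± 0.11 did not pass (limma adjusted p = 0.170). The effects differed by 0.48 (limma adjusted p = 0.0368), a call that 14 of 22 alternatives did not keep, among them those without the second treated Huh7-labelled, the first or second untreated Huh7-labelled, the second or the third treated HepG2-labelled or any 1 untreated HepG2-labelled library (adjusted p 0.0526 to 0.0866). Of its exonic bases 4.24% lie opposite AC022784.5, which had at most 0.640 FPKM.

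PYGL (chromosome 14, 50857891 to 50944736, minus strand), the liver form of phosphorylase, moved little and in opposite directions. It had 64.2, 66.2 and 64.9 FPKM in treated HepG2-labelled samples, against 57.8, 58.2 and 57.5 FPKM in untreated ones. The groups were apart and the rise was 0.17 ± 0.04 (SE; limma adjusted p = 0.00839), or 0.27 (adjusted p = 0.000351) with quantile normalization. In Huh7-labelled cells it had 62.9, 63.3 and 68.0 FPKM with geniposide and 72.5, 73.1 and 70.6 FPKM without. Treated samples were below untreated ones, with a fall of 0.15 ± 0.04 (limma adjusted p = 0.0178). That fall was not kept under several scalings or without single libraries. With quantile normalization the change was 0.0088 (adjusted p = 0.909), with TPM -0.08 (adjusted p = 0.228), and the call was lost without the first or second treated or the first or second untreated library (adjusted p 0.0524 to 0.0668). The 2 effects were apart by 0.32 (limma adjusted p = 0.00327), which passed under all 22 alternatives (adjusted p up to 0.0332). Of its exonic bases 3.75% lie opposite AL358334.3, which had at most 1.06 FPKM.

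PYGB (chromosome 20, 25248069 to 25298014, plus strand), the brain form of phosphorylase, did not pass in either line. It had 22.2, 21.4 and 21.5 FPKM in treated HepG2-labelled samples, against 22.0, 22.7 and 20.9 FPKM in untreated ones. In Huh7-labelled cells it had 24.0, 24.7 and 34.2 FPKM with geniposide and 24.6, 25.3 and 24.6 FPKM without. Both pairs overlapped, and only the third treated Huh7-labelled library stood out. The changes were -0.01 in HepG2-labelled cells (95% confidence interval -0.25 to 0.22; limma adjusted p = 0.972) and 0.13 in Huh7-labelled cells (95% confidence interval -0.10 to 0.37; limma adjusted p = 0.385). They differed by -0.14 (limma adjusted p = 0.521). With the third treated library left out, the change in Huh7-labelled cells was -0.03 (adjusted p = 0.605) and the difference 0.02 (adjusted p = 0.833).

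Without treatment the lines differed in most of these genes. Untreated HepG2-labelled cells had more of GYS1, GBE1, UGP2, PGM1, PPP1R3B and PPP1R3C and less of PYGL than untreated Huh7-labelled cells. Leaving aside PPP1R3C, which passed the filter through HepG2-labelled samples alone, that is 5 higher and 1 lower of 8, while 36.1% of all tested genes were higher and 35.8% lower, 71.8% in all. The 2 untreated groups did not overlap for 7 of these 8, with HepG2-labelled samples above for 5 and below for 2, as for 80.2% of all tested genes, 40.1% above and 40.1% below. These untreated samples also serve as controls of the treatment comparisons. GBE1 averaged 31.6 ± 0.801 FPKM in untreated HepG2-labelled and 6.02 ± 0.792 FPKM in untreated Huh7-labelled cells (SD, n = 3 each), 2.22 apart on the log2(FPKM + 1) scale (limma adjusted p = 5.52e-07). UGP2 averaged 23.8 ± 0.460 FPKM in untreated HepG2-labelled and 6.93 ± 0.321 FPKM in untreated Huh7-labelled cells, 1.65 apart (limma adjusted p = 3.56e-09). GYS1 averaged 70.1 ± 0.551 FPKM in untreated HepG2-labelled and 24.9 ± 0.417 FPKM in untreated Huh7-labelled cells, 1.46 apart (limma adjusted p = 1.46e-08). The mean under the HepG2 label was thus 5.25 times that under the Huh7 label for the branching enzyme, 3.43 times for the enzyme that makes UDP-glucose and 2.82 times for the synthase. PGM1 differed by 0.68 (limma adjusted p = 4.32e-06), PPP1R3B by 0.86 (limma adjusted p = 2.50e-05) and PYGL by -0.31 (limma adjusted p = 4.92e-05). The denominator behind the deposited FPKM was 0.895 to 0.914 times the recovered fragments in HepG2-labelled libraries and 1.09 to 1.17 times in Huh7-labelled ones, so values set across the labels depend on it. With TPM, voom, quantile normalization or recovered fragments as the denominator, PGM1 differed by 0.34 to 0.42 and PYGL by -0.70 to -0.59, and both still passed.

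PPP1R3C showed the widest gap between the lines: 2875 fragments over the 3 untreated HepG2-labelled libraries and 3 over the 3 untreated Huh7-labelled ones. Scaled by the recovered fragments of the libraries that is a ratio of 899 (exact 95% interval 307 to 4362, counting error only), and by the authors' denominator a ratio of 1093 (374 to 5305). In treated cells it was at least 1404-fold higher under the HepG2 label by recovered fragments, set against 3 fragments over the Huh7-labelled group, and at least 1786-fold by the authors' denominator. GYG1 (0.05; limma adjusted p = 0.621) and PYGB (-0.17; limma adjusted p = 0.163) did not pass between the untreated lines. PYGB passed without the third treated Huh7-labelled library (limma adjusted p = 0.000844) and with the untreated samples fitted alone (limma adjusted p = 0.00352). Under scalings that move the median of all genes from -0.01 to between -0.23 and -0.30 (TPM, voom and recovered fragments as the denominator), GYG1 was lower in HepG2-labelled cells (-0.21 to -0.23, adjusted p 0.0388 to 0.0430), a value near that median shift. PYGB was then lower as well, by -0.44 to -0.47 (adjusted p 0.00138 to 0.00311). Among called genes the share that was higher in HepG2-labelled cells was 50.2% with deposited FPKM and 36.4% to 36.6% with these scalings.

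Ordered by deposited FPKM, GYS1, GBE1, PGM1, PPP1R3B and PPP1R3C were highest in treated HepG2-labelled cells. Untreated HepG2-labelled cells came next, and the Huh7-labelled groups were below. Orders and overlaps across the labels in this paragraph depend on the denominator of the deposited FPKM. They were not redone with other scalings. Within the Huh7 label the ranges of GBE1, PPP1R3B and PPP1R3C overlapped, while GYS1 (lower with geniposide) and PGM1 (higher with geniposide) separated. UGP2 had overlapping ranges in the HepG2-labelled groups and was lowest in treated Huh7-labelled cells. PYGL was highest in untreated Huh7-labelled cells (72.1 ± 1.32 FPKM), overlapped between treated HepG2-labelled (65.1 ± 1.02 FPKM) and treated Huh7-labelled cells (64.7 ± 2.85 FPKM), and was lowest in untreated HepG2-labelled cells (57.8 ± 0.345 FPKM; SD, n = 3 each). GYG1 was lowest in treated HepG2-labelled cells (6.57 ± 0.149 FPKM), and its other 3 groups overlapped.

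The form of each enzyme in use was read from shares of FPKM, which is a level per length. Synthase RNA was almost wholly GYS1: the liver form GYS2 had 2 fragments over treated and 1 over untreated Huh7-labelled cells and 0 in HepG2-labelled cells. GYS1 made up at least 99.9% of the 2 in every group. PYGL made up 75.0 ± 0.659% of phosphorylase FPKM in treated HepG2-labelled cells and 72.5 ± 0.684% in untreated ones (SD, n = 3 each). In Huh7-labelled cells its share was 70.2 ± 3.29% with geniposide and 74.3 ± 0.308% without (SD, n = 3 each). The third treated library had 66.4%, against 72.3% and 71.9% in the others of its group. Treated and untreated shares did not overlap under either label. The exact permutation test (two-sided) gave p = 0.1 for each label, the smallest that 3 against 3 samples allow. The muscle form PYGM averaged 0.0133 FPKM in treated and 0.00450 FPKM in untreated HepG2-labelled cells, and 0.116 FPKM in treated and 0.147 FPKM in untreated Huh7-labelled cells. The ratio of GYS1 to summed phosphorylase FPKM was 0.897 ± 0.0281 in treated and 0.880 ± 0.0203 in untreated HepG2-labelled cells, and 0.178 ± 0.0372 in treated and 0.257 ± 0.00406 in untreated Huh7-labelled cells (SD, n = 3 each), a description chosen after the values were seen. By library the ratio was 0.203, 0.195 and 0.135 in treated Huh7-labelled cells, the last in the third library.

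**Figure D3:**
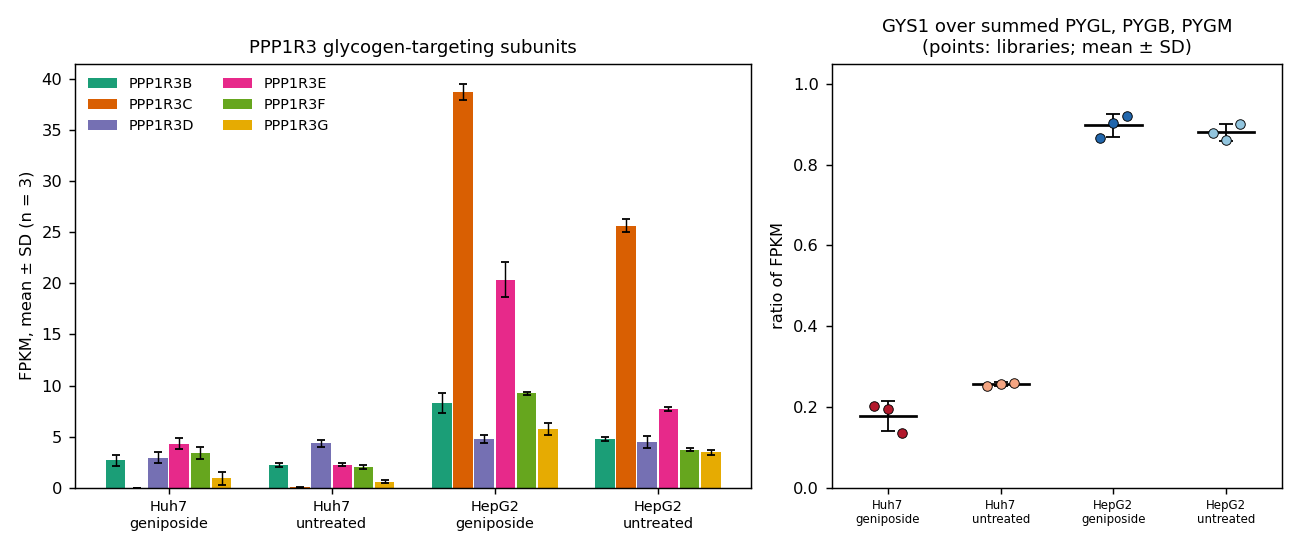
Left, mean FPKM (bars, from 0) with SD over 3 libraries (error bars) of 6 PPP1R3 subunit genes in the 4 groups; right, the ratio of GYS1 FPKM to the summed FPKM of PYGL, PYGB and PYGM in each library (points) with mean ± SD. PPP1R3C and PPP1R3E are the 2 highest subunits in both HepG2-labelled groups, and the ratio runs between 0.861 and 0.921 under the HepG2 label and between 0.135 and 0.260 under the Huh7 label.

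PPP1R3B and PPP1R3C belong to a family of phosphatase 1 subunits, of which the muscle member PPP1R3A had 0 fragments in all libraries. PPP1R3E stood at 19.1, 22.3 and 19.7 FPKM in treated and 7.54, 7.87 and 7.72 FPKM in untreated HepG2-labelled samples, a rise of 1.29 ± 0.08 (SE; limma adjusted p = 1.09e-06). In Huh7-labelled cells it was at 4.96, 4.01 and 4.01 FPKM with geniposide and 2.28, 2.07 and 2.36 FPKM without, a rise of 0.72 ± 0.08 (limma adjusted p = 0.000104). PPP1R3F rose by 1.11 (limma adjusted p = 5.34e-06) in HepG2-labelled and by 0.53 (limma adjusted p = 0.00111) in Huh7-labelled cells. So these 2 relatives rose under both labels. PPP1R3D fell in Huh7-labelled cells by 0.44 (limma adjusted p = 0.00925) and changed by 0.08 in HepG2-labelled cells (limma adjusted p = 0.624). PPP1R3G changed by 0.59 in HepG2-labelled cells (limma adjusted p = 0.0459), a call lost under 15 of 23 alternatives (adjusted p up to 0.294), among them those without any 1 HepG2-labelled or untreated Huh7-labelled library. In Huh7-labelled cells PPP1R3G changed by 0.22 (adjusted p = 0.468), or by 0.54 (adjusted p = 0.00169) without the third treated library. Summed over the family, FPKM was 87.1 ± 2.96 in treated and 49.8 ± 0.971 in untreated HepG2-labelled cells, and 14.3 ± 1.58 in treated and 11.4 ± 0.118 in untreated Huh7-labelled cells (SD, n = 3 each). PPP1R3C was 44.5% of that sum in treated and 51.5% in untreated HepG2-labelled cells.

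Around these genes, 32 others of glycogen metabolism were listed and 21 could be tested. In HepG2-labelled cells 7 of the 21 rose and 5 fell, with a median change of 0.08, while 21% of all tested genes rose and 21.5% fell. In Huh7-labelled cells 5 rose and 5 fell, with a median of -0.10, while 16.4% of all tested genes rose and 18.1% fell. The second glycogenin, GYG2, fell furthest of the 21 in HepG2-labelled cells. It had 0.879, 1.14 and 0.821 FPKM in treated HepG2-labelled samples, against 3.84, 4.24 and 4.56 FPKM in untreated ones. The fall was 1.42 ± 0.12 (SE; limma adjusted p = 7.28e-06), so both glycogenins fell there. In Huh7-labelled cells GYG2 had 7.55, 7.51 and 5.24 FPKM with geniposide and 8.88, 9.74 and 8.64 FPKM without. The fall of 0.39 (limma adjusted p = 0.0274) was not kept without any 1 of the 3 untreated libraries (adjusted p 0.0506 to 0.0944), nor with TPM (adjusted p = 0.0952). GYG1 made up 87.4 ± 2.11% of glycogenin FPKM in treated and 70.5 ± 2.82% in untreated HepG2-labelled cells (SD, n = 3 each).

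The lysosomal glucosidase GAA, which takes glycogen apart, rose under both labels. It had 34.8, 33.5 and 33.4 FPKM in treated and 16.7, 17.6 and 17.3 FPKM in untreated HepG2-labelled samples, a rise of 0.94 ± 0.04 (SE; limma adjusted p = 1.76e-07). In Huh7-labelled cells it had 36.2, 38.5 and 35.7 FPKM with geniposide and 25.8, 26.0 and 25.9 FPKM without, a rise of 0.49 ± 0.04 (limma adjusted p = 2.61e-05). Of the subunits of phosphorylase kinase, which switches phosphorylase on, PHKB fell in HepG2-labelled cells (by 0.22, limma adjusted p = 0.00264). In Huh7-labelled cells PHKA1 rose by 0.24 (limma adjusted p = 0.00615), PHKG2 fell by 0.35 (limma adjusted p = 0.00166) and PHKB fell by 0.15 (limma adjusted p = 0.0226). Of the catalytic phosphatase subunits, PPP1CA fell in HepG2-labelled cells by 0.49 (limma adjusted p = 0.000439) and changed by -0.14 in Huh7-labelled cells (limma adjusted p = 0.192). In HepG2-labelled cells PPP1CB averaged 40.7 FPKM with geniposide and 43.9 FPKM without, and PPP1CC 33.7 and 34.9 FPKM, with overlapping ranges. Under the Huh7 label PPP1CC had 22.6 to 35.2 FPKM with geniposide and 38.5 to 39.5 FPKM without. There PPP1CB averaged 24.8 FPKM with geniposide and 24.4 FPKM without, with overlapping ranges.

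**Figure D4:**
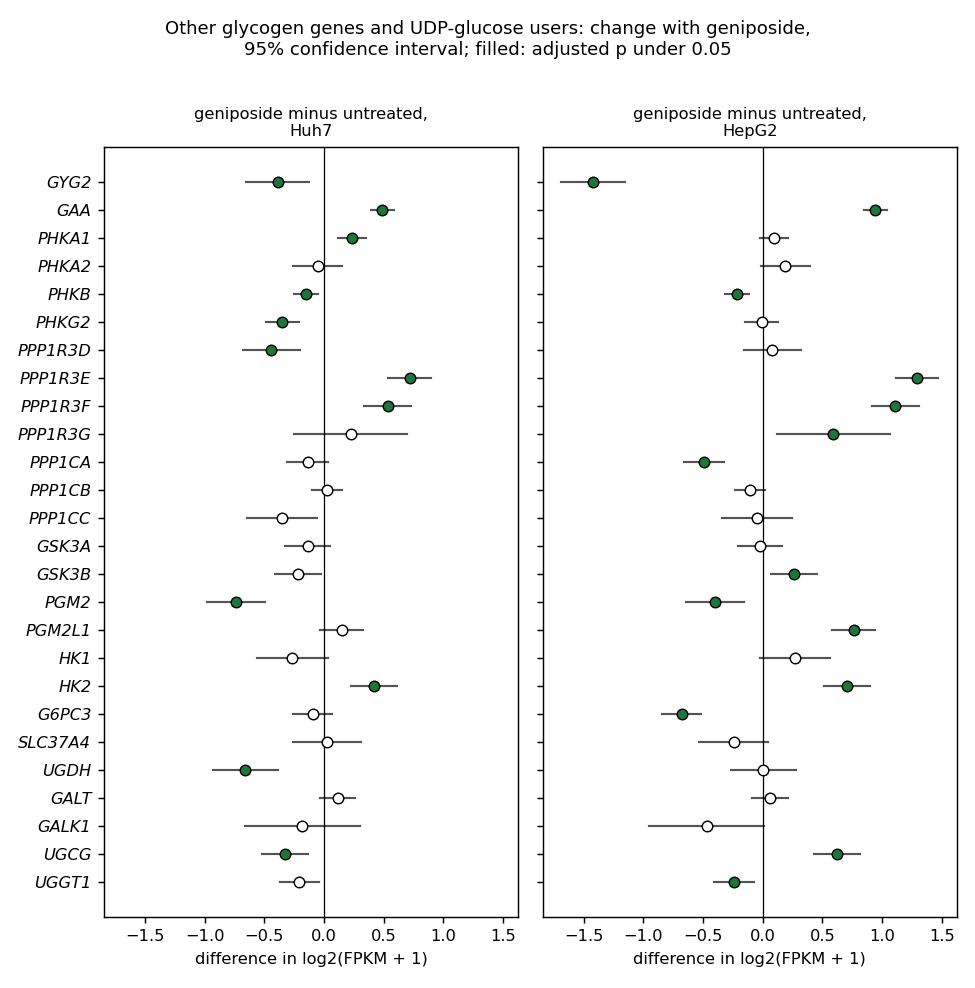
Change with geniposide in Huh7-labelled and HepG2-labelled cells for the 26 tested genes among the other glycogen genes and the users of UDP-glucose (x axis: difference in log2(FPKM + 1), on 1 scale; points: limma estimates; lines: 95% confidence intervals; filled points: adjusted p under 0.05). PPP1R3E, PPP1R3F, GAA and HK2 lie right of 0 under both labels, and GYG2 has the largest fall in HepG2-labelled cells (-1.42). GALK1, a galactokinase gene, is in the list of UDP-glucose users though its enzyme does not use UDP-glucose.

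Upstream of PGM1, hexokinase 2 (HK2), which traps glucose as its phosphate, rose under both labels. It had 70.3, 74.4 and 65.1 FPKM in treated and 43.8, 40.9 and 42.6 FPKM in untreated HepG2-labelled samples, a rise of 0.71 ± 0.09 (SE; limma adjusted p = 0.00010). In Huh7-labelled cells HK2 rose by 0.42 ± 0.09 (limma adjusted p = 0.00396). The PGM1 relative PGM2, a phosphopentomutase, fell under both labels, by 0.40 (limma adjusted p = 0.0121) in HepG2-labelled and by 0.74 (limma adjusted p = 0.000535) in Huh7-labelled cells. PGM2L1, which makes the bisphosphate cofactor of phosphoglucomutase, rose by 0.76 (limma adjusted p = 3.73e-05) in HepG2-labelled cells and changed by 0.15 in Huh7-labelled cells (limma adjusted p = 0.189). On the side of release, the liver glucose phosphatase G6PC had 0 fragments in all libraries. The widely expressed G6PC3 fell by 0.68 (limma adjusted p = 4.07e-05) in HepG2-labelled cells and changed by -0.10 in Huh7-labelled cells (limma adjusted p = 0.359).

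UDP-glucose also serves other enzymes. A list of 5 genes was made for these, but 1 of them, GALK1, codes for galactokinase, which does not use UDP-glucose. Of the 5 listed, 1 rose and 1 fell in HepG2-labelled cells, and 0 rose and 2 fell in Huh7-labelled cells. That is near the 42.5% of all tested genes called in HepG2-labelled and the 34.5% called in Huh7-labelled cells. UGCG, which puts glucose on ceramide, rose by 0.62 (limma adjusted p = 0.000210) in HepG2-labelled cells. It fell by 0.33 (limma adjusted p = 0.0133) in Huh7-labelled cells, a call not kept when these samples were fitted alone (adjusted p = 0.108). UGDH, which oxidises UDP-glucose to the glucuronate form, fell by 0.66 (limma adjusted p = 0.00204) in Huh7-labelled cells, as UGP2 did, and changed by 0.00 in HepG2-labelled cells (limma adjusted p = 1.0). UGGT1, which marks misfolded glycoproteins with glucose, fell by 0.24 (limma adjusted p = 0.0233) in HepG2-labelled cells.

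PPP1R3C, whose group means spanned the widest range of the 9 (5.31 on the log2 scale), was compared with every other tested protein-coding gene by the root-mean-square distance of centred log2(FPKM + 1) profiles over the 12 samples. The nearest were the kinase gene SIK1 at 0.11, the aldo-keto reductase gene AKR1C3 at 0.15 and the small GTPase gene RAB32 at 0.16. SIK1 averaged 50.4 FPKM in treated and 31.7 FPKM in untreated HepG2-labelled cells, and 0.0943 FPKM in treated and 0.220 FPKM in untreated Huh7-labelled cells. AKR1C3 averaged 32.3 FPKM in treated and 20.3 FPKM in untreated HepG2-labelled cells, and was at 0 in both Huh7-labelled groups. RAB32 averaged 29.8 FPKM in treated and 25.3 FPKM in untreated HepG2-labelled cells, and was at 0 in both Huh7-labelled groups. Levels near 0 under the Huh7 label are part of what this distance selects.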

How the data were processed

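Poly(A) RNA was sequenced in 12 samples, 3 in each of 4 groups taken from the labels. The deposited FPKM values are the authors' own and were used unchanged. The submitters' processing notes name CASAVA, fastp and build hg38; the versions, the aligner and the counter are not stated there. The labels' protocols describe no strand marking, so genes that overlap on opposite strands cannot be told apart. All 58735 gene identifiers are in GENCODE 29, 58690 with the same coordinates. In each library FPKM times gene length was a whole number of steps for 100% of values (tolerance 0.05 fragments), which recovered 15056655 to 17211659 fragments per library; the authors' denominator was 0.895 to 1.17 times that sum. Floors of 3 fragments and exact intervals cover counting error only.

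limma 3.58.1 in R 4.3.3 was fitted to log2(FPKM + 1) of the 15518 genes with at least 1 FPKM in at least 3 samples, with 4 group means, an intensity trend, 8 residual degrees of freedom and two-sided tests. P-values were Benjamini-Hochberg adjusted over all tested genes, with a threshold of 0.05. Shares were compared by exact permutation tests written with numpy 2.4.6 in Python 3.11.15, and scipy 1.17.1 gave the exact intervals for PPP1R3C. Of these steps only the limma fit was tested on simulated data, for changes of well-covered genes in the Huh7-labelled comparison. Alternatives were a pseudocount of 0.1, no filter, a filter of 5 FPKM, TPM, median-of-ratios and quantile scaling, voom on recovered fragments, fits of part of the samples, no trend, a replicate block and leaving out each library; recovered fragments as denominator were added after seeing the data. The text names all 9 genes, and of the listed others GYS2, GYG2, PYGM and those past the threshold with a change of at least 0.5 in a treatment comparison. PPP1R3A, PPP1R3D, G6PC, PPP1CA, PPP1CB, PPP1CC, UGGT1 and the phosphorylase kinase subunits were added after their values were seen. GALK1 is named only as a member of its list. Some genes of these lists are not reported here and were left out of the lists' counts. Members and lists were chosen with earlier results of these data known. Nothing in the labels tells whether samples of a group were separate cultures, so p-values measure only the spread among the libraries at hand, possibly technical. No 2 libraries of a group agreed within sampling noise.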

Additional observations from a re-analysis of the deposited data

Results flagged for a closer look

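For 6 of the 8 genes other than PPP1R3C the change with geniposide differed between the labels by limma's test of the difference, HepG2-labelled minus Huh7-labelled, on the log2(FPKM + 1) scale. The difference was 1.34 for GBE1, 0.75 for GYS1, 0.48 for PPP1R3B, 0.43 for UGP2, 0.32 for PYGL and -0.72 for GYG1. PPP1R3C gave 0.61 in the same test, but it had at most 2 fragments in any Huh7-labelled library, so the value follows from its rise in HepG2-labelled cells. In GBE1 and PPP1R3B the change passed in HepG2-labelled cells alone, in GYS1 and UGP2 in Huh7-labelled cells alone, and in PYGL in both with opposite signs. In GYG1 it passed in HepG2-labelled cells alone. The PPP1R3B difference lost its call under 14 of 22 alternatives. The PYGL fall in Huh7-labelled cells lost its call under 9 of 23 alternatives and turned sign under 1 more. Over all tested genes 27.8% differed in the same test.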

How the results depend on the processing

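Of 819 values of the 9 genes recomputed under the alternatives, 760 kept their direction and their side of the threshold, 25 lost the call, 13 gained one and 21 turned sign. Under several alternatives only the adjusted p could move, not the change itself. These were other filters, no trend, the replicate block, fits of part of the samples and leaving out a library outside the comparison. The count of 760 is thus in part fixed by design. Of called changes, the sign turned for PYGL in Huh7-labelled cells with quantile normalization (0.0088); the cause was not tested. The other turns were of changes that had not passed. For GYG1 between the untreated lines they came with TPM (-0.22), voom (-0.23), recovered fragments as denominator (-0.21) and quantile normalization (-0.12). In HepG2-labelled cells UGP2 gave 0.057, 0.014, 0.054, 0.0022 and 0.00093, and PYGB 0.058, 0.016, 0.046, 0.0031 and 0.0023, with TPM, median-of-ratios scaling, quantile normalization, voom and recovered fragments as denominator, in that order. Leaving out 1 library at a time gave -0.36 to 0.042 for GBE1 and -0.027 to 0.22 for PYGB in Huh7-labelled cells, and -0.23 to 0.016 for the PYGB difference, each turning only without the third treated Huh7-labelled library. It gave -0.037 to 0.0055 for UGP2, -0.041 to 0.013 for PYGB and -0.029 to 0.055 for UGDH in HepG2-labelled cells, and -0.022 to 0.095 for GYG1 between the lines. The number of genes called in Huh7-labelled cells was 5357, and 3266 when these samples were fitted alone, while in HepG2-labelled cells it was 6602, and 7692 when fitted alone; the cause was not tested. Between the untreated lines it was 11146, and 7220 with a filter of 5 FPKM, which leaves fewer genes to test. Leaving out 1 library at a time gave 4113 to 7154 called genes in Huh7-labelled cells, 5525 to 8342 in HepG2-labelled cells, 3329 to 6170 for the difference and 10453 to 12105 between the lines. Of the 9 genes it gave 3 to 4, 6 to 7, 6 to 7 and 7 to 8 in these comparisons. Among called genes in Huh7-labelled cells 47.5% were higher with deposited FPKM, 61.6% with TPM and 38.8% with a filter of 5 FPKM; for the difference 50.8% were higher, and 40.1% with voom.

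Same-numbered samples did not deviate together (correlations from -0.061 to 0.020), so the numbers were not taken to pair samples. With a replicate block 4520 of 15518 tested genes were called in Huh7-labelled and 5952 in HepG2-labelled cells, 3160 for the difference and 10901 between the lines. Of the 9 genes 3, 5, 6 and 7 were called. PYGL lost its call under both labels (adjusted p = 0.0815 and 0.0514) and PPP1R3B its difference (adjusted p = 0.0573). The counts of 6 and 7 include PPP1R3C, whose tests between the labels follow from its level under the HepG2 label. At these depths 3 or fewer fragments, as for PPP1R3C in Huh7-labelled cells, cannot show a change.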
